A study of Mus musculus with 9 samples.

Results

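Imprinted genes are transcribed mainly from 1 parental chromosome, some of them in certain tissues only. A list of 42 mouse genes known for this was followed across the arrays. It held 23 genes reported with paternal expression, 17 with maternal expression, and Grb10 and Gnas, in which the active copy depends on the isoform. Whether each gene was imprinted in the cells used was not measured. Members were all probe-sets whose mouse gene symbol is on the list. There were 111 such probe-sets for 40 genes, of 45101 probe-sets and 18195 genes on the arrays. Dio3, a deiodinase that inactivates thyroid hormone, and Rtl1, a retrotransposon-derived gene of the placenta, are both paternally expressed and had no named probe-set, so they were not analysed here.

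The arrays held 3 groups of 3 primary mouse embryo fibroblast (MEF) cultures, all of a mixed C57BL/6J x 129Sv/J background, isolated at embryonic day 13.5 and grown in DMEM with fetal bovine serum on a 3T3 protocol, in which cells are counted and re-plated at a fixed density. The first group was Tgif1 -/- (Tgif1 null) at passage 3, the second wild type at passage 5 (P5), and the third wild type at passage 3 (P3). Tgif1 is a transcriptional repressor that limits TGF-beta and retinoic acid responses. The null was homozygous in every cell of a culture, and no treatment was given. Arrays of Tgif1 null cells at P5 were not analysed here, so the null could be set against wild type at the same passage or at the later passage only.

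Imprinting is set in the germ line by DNA methylation at control regions, which is kept through cell division by the maintenance methyltransferase DNMT1 with its partner UHRF1 and, at these regions, by zinc finger proteins such as ZFP57 that recruit TRIM28. Most imprinted genes lie in clusters, in which a long non-coding RNA or an insulator keeps the neighbouring genes off on 1 parental chromosome. Many of them act on fetal growth: Igf2 encodes a growth factor of the fetus, Igf2r its clearance receptor, Grb10 an inhibitor of insulin and IGF receptors, and Cdkn1c the cell cycle inhibitor p57. A microarray measures the RNA of both alleles together, so the values below are levels and say nothing of which parental copy was active.

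The values are log2 signals as the authors deposited them, with a lowest value of 2.23 and a highest value between 15.8 and 16.0 on each array. A gene was represented by its probe-set with the highest mean signal. Differences are given on the log2 scale, so that 1 is a doubling, with their standard error, and "rose" and "fell" are kept for genes that passed limma's moderated test at a Benjamini-Hochberg adjusted p under 0.05, with the adjustment made across the 45101 probe-sets. The labels were checked with Tgif1 itself, which had log2 signals of 2.48, 3.21 and 2.50 in the Tgif1 null, against 10.06, 10.07 and 10.18 in wild type P5 and 9.82, 9.95 and 9.72 in wild type P3 cultures, although its probes were not placed against the deleted exons. The 11 fibroblast markers averaged 12.5 to 12.7 on the null, 12.8 to 12.9 on the P5 and 12.6 on the P3 arrays, with none below 3 on all arrays, and the 4 hepatoblast markers averaged no more than 2.28 on any array. Replicate arrays correlated across probe-sets at 0.996 to 0.999.

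H19, maternally expressed, and Mest, paternally expressed, both fell between the wild type passages and both host a microRNA, so these microRNAs are shown first. In the mature microRNAs below, taken from RefSeq on GRCm38.p6, the seed (bases 2 to 8 from the 5′ end) is in capitals. They are miR-675-5p at chr7:142577112-142577133 and miR-675-3p at chr7:142577078-142577099, both on the minus strand within H19, and miR-335-5p at chr6:30741314-30741336 and miR-335-3p at chr6:30741354-30741375, both on the plus strand within Mest.
mmu-miR-675-5p: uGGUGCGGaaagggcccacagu
mmu-miR-675-3p: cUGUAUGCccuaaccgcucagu
mmu-miR-335-5p: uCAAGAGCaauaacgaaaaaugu
mmu-miR-335-3p: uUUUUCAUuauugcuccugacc
The 4 seeds differ from each other, and the array values of H19 and Mest given further down are those of the host transcripts, not of the mature microRNAs.

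RefSeq transcription start windows were used for 36 of the 42 genes, and the 250 bases before each start were searched. No window was used for Peg10, Cdkn1c, Rtl1, H19, Impact and Sgce. Windows on the chromosome of Impact were left out of the imprinted set, but were kept among all windows. The hexamer TGCCGC, the core of the motif that ZFP57 recognises when methylated, was searched on both strands (GCGGCA on the other) and was present in 8 of 56 windows of the imprinted genes (14.3%), against 8.7% of all 32851 windows. Of the 10 genes with a window that fell between P5 and P3, Mest and Zdbf2 held it, and these windows are shown with the hexamer in capitals, at chr6:30737800-30738049 and chr1:63200108-63200357, both on the plus strand.
Mest: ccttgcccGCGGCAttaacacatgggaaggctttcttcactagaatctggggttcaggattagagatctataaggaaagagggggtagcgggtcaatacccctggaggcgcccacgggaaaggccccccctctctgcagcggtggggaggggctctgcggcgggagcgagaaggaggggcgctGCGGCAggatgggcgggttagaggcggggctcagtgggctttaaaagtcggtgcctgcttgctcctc
Zdbf2: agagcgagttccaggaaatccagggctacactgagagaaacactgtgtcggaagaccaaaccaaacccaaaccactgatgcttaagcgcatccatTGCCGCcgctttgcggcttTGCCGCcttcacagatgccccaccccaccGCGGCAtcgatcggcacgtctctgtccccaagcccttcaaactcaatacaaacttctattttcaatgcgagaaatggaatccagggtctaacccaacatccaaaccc
The printed Mest window held the hexamer 2 times and the printed Zdbf2 window 3 times. Mest had 3 start windows. That at chr6:30737803-30738052 overlapped the printed one and held the same matches, and that at chr6:30733256-30733505 held none. The other Zdbf2 window, at chr1:63273019-63273268, held none. Overlapping windows were counted separately among the 56. Counted by gene, 7 of the 36 imprinted genes with a window held TGCCGC, and 2 of the 10 that fell did. The hexamer was thus about as frequent among the genes that fell as among all 36. Windows of the imprinted genes held a median of 10 CpG dinucleotides, against 6 in all windows. CTGTCA, the hexamer bound by TGIF1, was found on either strand in 4 of the 56 windows (7.1%), against 15.9% of all windows. These were windows of Igf2, Slc38a4 and Snrpn, and neither printed window held it. A match is a string of letters and not a measured binding site.

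Of the 40 genes, 28 had a mean log2 signal above 4, of which 15 were paternally and 11 maternally expressed. Usp29, Rasgrf1, Mkrn3 and Peg10 of the paternal genes and Zim1, Slc22a18, Ascl2 and Ppp1r9a of the maternal genes lay below 3 on all arrays. A further 4 lay between (Magel2, Nap1l5, Phlda2 and Gatm). The number of imprinted genes above 4 was 28 on each null array, 28 or 29 on the P5 arrays and 28 or 29 on the P3 arrays, so roughly the same share of the list was measurable in each group. A gene near the lowest value cannot show a decrease.

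More imprinted genes passed the test between the wild type passages than between genotypes at passage 3. The same held over all genes, of which 6.13% rose and 7.11% fell between passages, against 1.51% and 1.07% between genotypes. Between P5 and P3, 12 of the 40 genes fell (30%), against a background of 7.11% of all genes, and 1 rose (2.5%), against 6.13%. Among genes with a mean log2 signal above 4 the counts were 11 of 28 that fell (39.3%), against 12.8% of all genes at that level, and 1 of 28 that rose (3.57%), against 10.5%. The median difference was -0.03 over the 40 genes and -0.45 over the 28, against 0 over all genes and -0.03 over all genes above 4. Of the paternally expressed genes 7 of 21 fell and none rose, with a median of -0.28, and of the maternally expressed genes 5 of 17 fell and 1 rose, with a median of 0. Grb10 and Gnas did not pass.

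**Figure D1:**
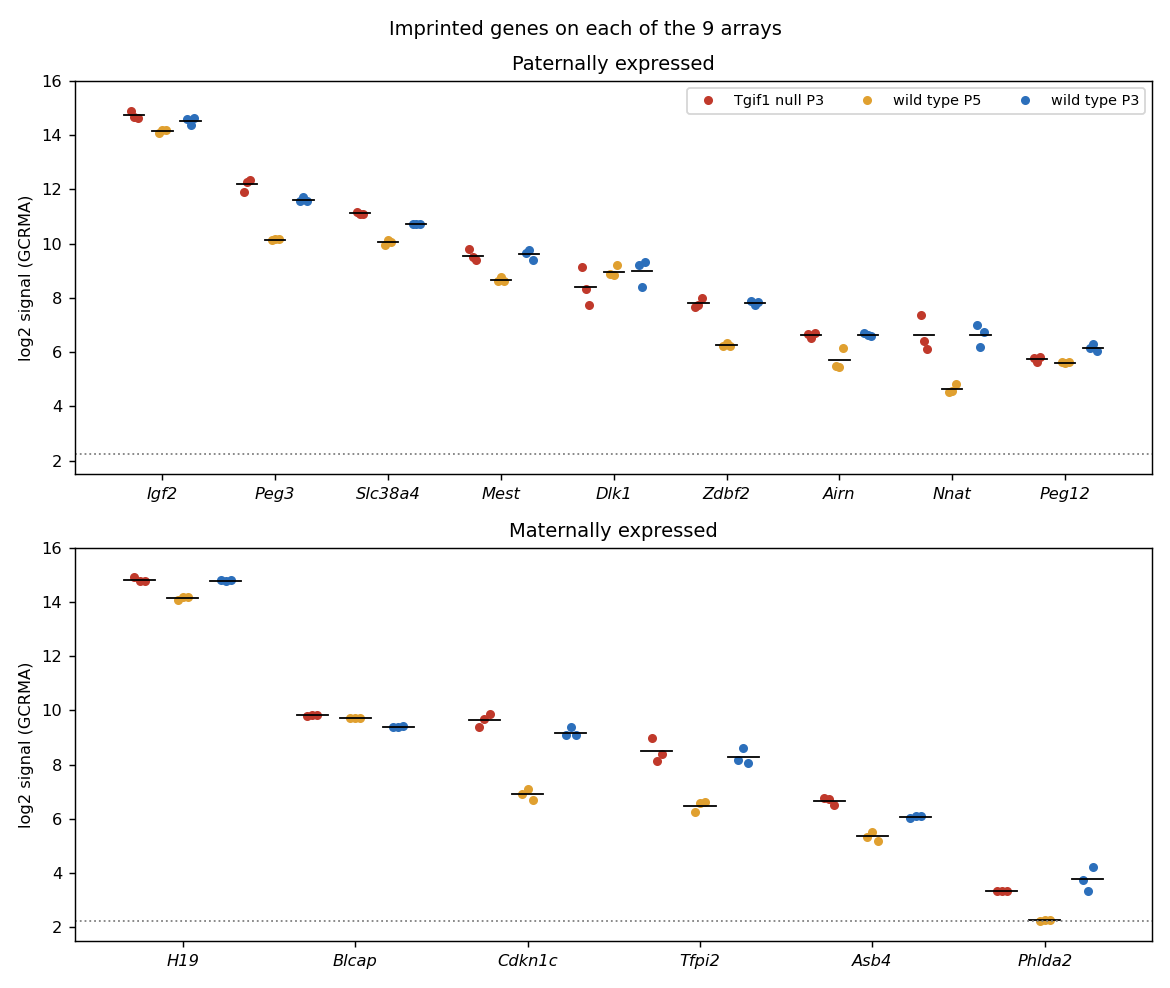
Log2 signal (GCRMA, vertical axis) of each imprinted gene that passed in at least 1 comparison, and of Dlk1, on each array of Tgif1 null P3 (red), wild type P5 (yellow) and wild type P3 (blue). Points are arrays, black bars are means of 3, and the dotted line is the lowest value of the arrays (2.23). The P5 arrays of Cdkn1c lie between 6.71 and 7.10, below every array of the other groups.

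Nnat, Zdbf2 and Peg3 fell furthest among the paternally expressed genes. Peg3 (1433924_at), a zinc finger protein of growth and maternal behaviour, had log2 signals of 11.91, 12.28 and 12.37 in the Tgif1 null, 10.13, 10.17 and 10.16 in P5, and 11.58, 11.73 and 11.57 in P3 cultures. All P5 arrays lay below all others, and the null arrays lay above P3. P5 fell by 1.48 (SE 0.12, 2.78-fold, adjusted p = 0.00138) relative to P3. Zdbf2 (1456783_at), which encodes a DBF-type zinc finger protein, had 7.65, 7.75 and 8.02 in the null, 6.22, 6.33 and 6.24 in P5, and 7.89, 7.75 and 7.83 in P3. Here the null and P3 arrays overlapped, while P5 fell by 1.56 (SE 0.10, 2.94-fold, adjusted p = 0.000622). Nnat (1423506_a_at), neuronatin, a small membrane protein of calcium handling, had 7.37, 6.40 and 6.11 in the null, 4.54, 4.58 and 4.84 in P5, and 7.01, 6.20 and 6.73 in P3. Its P5 arrays were again apart and low, the null and P3 arrays were widely spread, and P5 fell by 1.99 (SE 0.36, 3.98-fold, adjusted p = 0.0230). That call was lost on leaving out any P5 array or P3 array 1 or 3 (adjusted p = 0.0593 to 0.0868, differences of -2.08 to -1.81).

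Mest, which encodes a hydrolase-like protein of mesoderm and hosts miR-335, had 9.81, 9.50 and 9.38 in the null, 8.62, 8.76 and 8.63 in P5, and 9.67, 9.77 and 9.40 in P3 (1423294_at). P5 fell by 0.94 (SE 0.14, 1.92-fold, adjusted p = 0.0108), with no overlap with either passage 3 group. Slc38a4 (1448889_at), an amino acid transporter, had 11.18, 11.09 and 11.08 in the null, 9.96, 10.13 and 10.06 in P5, and 10.72, 10.72 and 10.71 in P3. The 3 groups formed separate steps, and P5 fell by 0.67 (SE 0.05, 1.59-fold, adjusted p = 0.000816). Its second probe-set, at about the same signal, differed by -0.28 (adjusted p = 0.628) and did not pass. Peg12 (1420406_at), a Frat family protein, had 5.80, 5.62 and 5.83 in the null, 5.63, 5.59 and 5.64 in P5, and 6.15, 6.28 and 6.05 in P3, so that in this gene the null lay with P5. P5 fell by 0.54 (SE 0.08, 1.46-fold, adjusted p = 0.00863).

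Igf2 and its neighbour H19 were near the upper end of the scale. Igf2 (1448152_at) had 14.91, 14.66 and 14.65 in the null, 14.09, 14.21 and 14.21 in P5, and 14.59, 14.38 and 14.62 in P3. P5 arrays lay below all P3 arrays, but the difference of -0.36 (SE 0.10) did not pass (adjusted p = 0.0754). It did pass without P3 array 2 (-0.44, adjusted p = 0.0437) or without null array 1 (-0.36, adjusted p = 0.0460). The other Igf2 probe-set (1415931_at), with a mean log2 signal of 8.49, had 9.31, 8.90 and 8.97 in the null, 7.48, 7.41 and 7.78 in P5, and 9.04, 8.51 and 9.03 in P3. On it P5 fell by 1.30 (SE 0.19, adjusted p = 0.0111). Both probe-sets had the P5 arrays lowest, with differences of unequal size. H19 (1448194_a_at), a maternally expressed long non-coding RNA, had 14.93, 14.77 and 14.78 in the null, 14.06, 14.18 and 14.18 in P5, and 14.81, 14.76 and 14.80 in P3. P5 fell by 0.65 (SE 0.05, 1.57-fold, adjusted p = 0.00137), and the null and P3 arrays overlapped. Its probe-set is annotated to H19 and to Mir675 within it.

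Cdkn1c fell furthest of the maternally expressed genes, and of all 40. Cdkn1c (1417649_at), which encodes p57, an inhibitor of G1 cyclin-dependent kinases, had 9.38, 9.68 and 9.87 in the null, 6.92, 7.10 and 6.71 in P5, and 9.08, 9.38 and 9.10 in P3. All P5 arrays lay more than 1 unit below the others, and P5 fell by 2.27 (SE 0.16, 4.84-fold, adjusted p = 0.000972). Phlda2, a pleckstrin homology protein that limits placental growth and lies in the same cluster, had 3.34 on each null array, 2.23, 2.28 and 2.28 in P5, and 3.75, 3.35 and 4.24 in P3. P5 fell by 1.52 (SE 0.21, adjusted p = 0.00800). P5 was at the floor of the scale, and the passage 3 signals were low, with 1 value repeated on all null arrays. The size of this difference is therefore uncertain. The transporter Slc22a18 and the trophoblast factor Ascl2, also of that cluster, were at the floor in all groups, and its antisense RNA Kcnq1ot1 is described with the non-coding RNAs.

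Tfpi2 (1418547_at), an extracellular inhibitor of serine proteases, had 8.99, 8.13 and 8.39 in the null, 6.26, 6.57 and 6.64 in P5, and 8.19, 8.62 and 8.07 in P3. P5 lay below both other groups, which overlapped, and fell by 1.80 (SE 0.26, 3.49-fold, adjusted p = 0.00977). Asb4 (1433919_at), a SOCS box protein that lies in the same cluster, had 6.77, 6.74 and 6.53 in the null, 5.34, 5.52 and 5.19 in P5, and 6.02, 6.09 and 6.12 in P3. The groups were fully separate, with P3 in the middle, and P5 fell by 0.73 (SE 0.10, 1.66-fold, adjusted p = 0.00868), while its dimmer probe-set differed by -0.31 (adjusted p = 0.202). Blcap (1420631_a_at), within which Nnat lies, was the 1 gene that rose: it had 9.81, 9.83 and 9.82 in the null, 9.74, 9.73 and 9.72 in P5, and 9.39, 9.40 and 9.41 in P3. The increase at P5 was 0.33 (SE 0.01, 1.26-fold, adjusted p = 7.18e-05). The replicates of this gene lay very close together. When limma's prior variance was made to depend on signal and to resist outliers, the difference did not pass (adjusted p = 0.101).

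**Figure D2:**
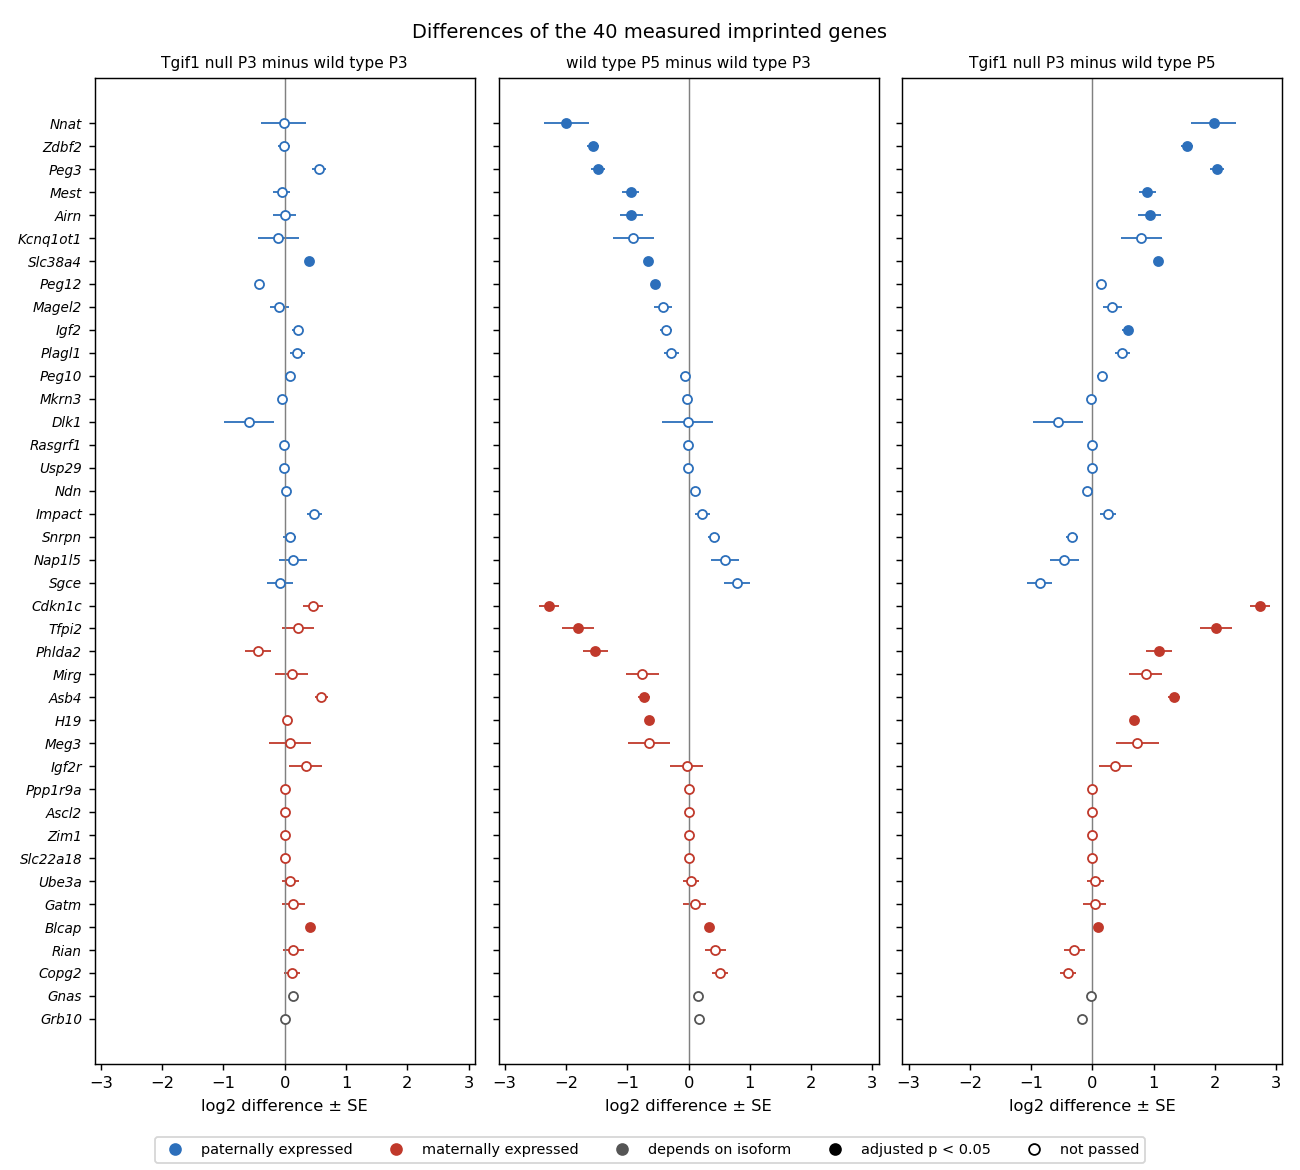
Log2 difference ± SE (horizontal axis) of each of the 40 measured imprinted genes in 3 comparisons, from left to right Tgif1 null P3 minus wild type P3, wild type P5 minus wild type P3, and Tgif1 null P3 minus wild type P5. Filled points passed limma's test at an adjusted p under 0.05: 2, 13 and 13 genes. The last comparison shares its arrays with both others.

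In 4 of the non-coding RNAs P5 arrays 1 and 2 had the lowest signals of all 9 arrays. Airn (1451634_at), the paternal antisense RNA that silences Igf2r in cis, had 6.69, 6.54 and 6.71 in the null, 5.50, 5.46 and 6.17 in P5, and 6.70, 6.64 and 6.60 in P3, and P5 fell by 0.94 (SE 0.19, 1.92-fold, adjusted p = 0.0320). That call did not hold when any of the 8 other arrays was left out (adjusted p = 0.0536 to 0.114), and without P5 array 3 the difference was -1.17 (adjusted p = 0.00149). A dimmer Airn probe-set (1456139_at), with a mean log2 signal of 5.00, differed by -0.44 (adjusted p = 0.402) and did not pass. Meg3, Mirg and Kcnq1ot1 were then examined because their values had the same shape, so they were chosen after their values were seen. Meg3, a maternal RNA with growth-suppressing activity, had 11.24, 11.24 and 11.58 in the null, 10.28, 10.15 and 11.43 in P5, and 11.08, 11.24 and 11.48 in P3 (-0.65 between P5 and P3, adjusted p = 0.439). Mirg, the host of a microRNA cluster, had 6.84, 6.74 and 7.04 in the null, 5.64, 5.74 and 6.63 in P5, and 6.62, 6.71 and 6.95 in P3 (-0.76, adjusted p = 0.187). Kcnq1ot1, the paternal antisense RNA of the Cdkn1c cluster, had 6.27, 6.11 and 6.78 in the null, 5.26, 5.24 and 6.27 in P5, and 6.28, 6.74 and 6.45 in P3 (-0.90, adjusted p = 0.204).

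P5 array 3 lay 1.21 above the mean of the other P5 arrays in Meg3, 0.94 in Mirg, 1.02 in Kcnq1ot1 and 0.69 in Airn, where those 2 arrays differed by 0.13, 0.10, 0.02 and 0.04. In the other 24 genes with a mean log2 signal above 4 its distance from that mean ran from -0.30 in Cdkn1c to 0.37 in Dlk1, with 0.30 in Rian, 0.27 in Nnat and 0.22 in Tfpi2. Without P5 array 3 the differences between P5 and P3 were -1.05 for Meg3, -1.07 for Mirg and -1.24 for Kcnq1ot1, given with no test because these genes were picked for the position of that array. Igf2r itself, in the cluster of Airn, had 11.10, 11.34 and 11.85 in the null, 11.07, 11.21 and 10.90 in P5, and 10.77, 11.55 and 10.95 in P3, which overlapped.

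**Figure D3:**
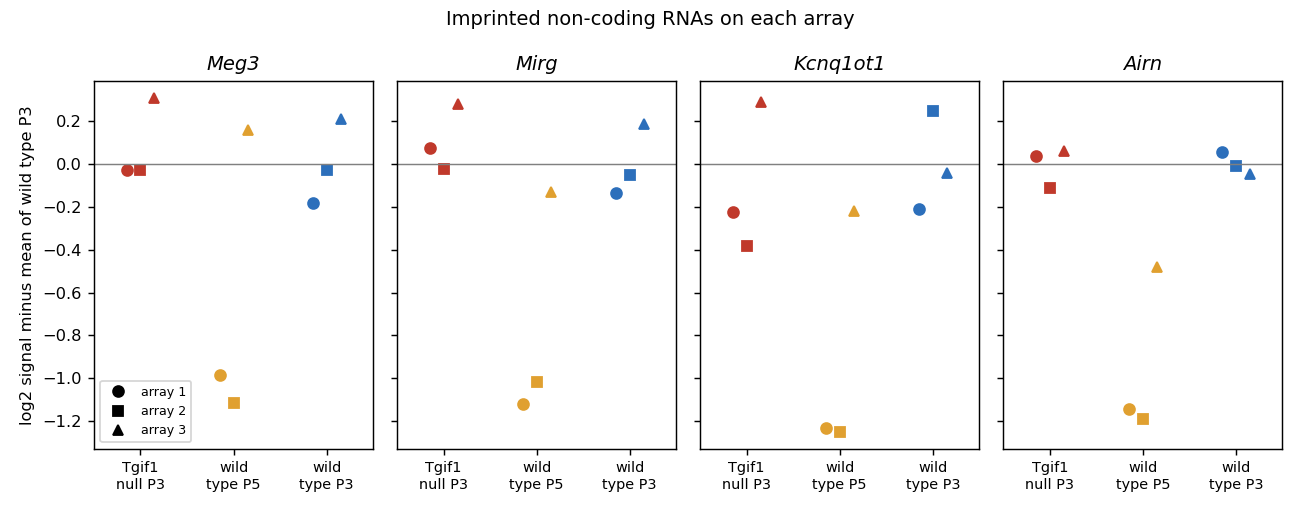
Log2 signal minus the mean of the wild type P3 arrays (vertical axis) for 4 imprinted non-coding RNAs on each of the 9 arrays, with Tgif1 null P3 at the left, wild type P5 in the middle and wild type P3 at the right. Circles, squares and triangles are arrays 1, 2 and 3 of a group, numbers that were not taken to pair the groups. P5 array 3 lies 0.69 to 1.21 above the mean of the other P5 arrays.

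The remaining measurable genes did not pass between P5 and P3. Dlk1 (1449939_s_at), a transmembrane protein that restrains fat cell differentiation, varied widely within groups: it had 9.15, 8.35 and 7.72 in the null, 8.87, 8.83 and 9.22 in P5, and 9.20, 8.42 and 9.34 in P3, a difference of -0.02 between P5 and P3 (SE 0.41, 95% interval -1.01 to 0.98, adjusted p = 1). Sgce, epsilon-sarcoglycan, differed by 0.79 (adjusted p = 0.0796), Copg2, a coatomer subunit, by 0.51 (adjusted p = 0.0687), Snrpn, a splicing ribonucleoprotein, by 0.41 (adjusted p = 0.0640), Rian by 0.44 (adjusted p = 0.237) and Gnas, the stimulatory G protein subunit, by 0.16 (adjusted p = 0.0711), each with P5 arrays above P3 arrays. Plagl1, a zinc finger transcription factor, differed by -0.28 (adjusted p = 0.316), the ubiquitin ligase Ube3a by 0.04 (95% interval -0.28 to 0.36), Ndn, necdin, by 0.10 (-0.05 to 0.25), Grb10 by 0.17 (0.03 to 0.30) and Impact, an inhibitor of the kinase GCN2, by 0.23 (-0.08 to 0.54).

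Calls within a cluster were mixed. Peg3 fell while Usp29 and Zim1 were at the floor, Mest fell while Copg2 did not pass, and Nnat fell while Blcap rose. In the cluster of Sgce, Asb4 and Tfpi2 fell, Sgce did not pass, and Peg10 and Ppp1r9a were at the floor. In the cluster of Snrpn, Peg12 fell, and Ndn, Snrpn and Ube3a did not pass. Igf2 and H19 both had their lowest arrays at P5, as did Cdkn1c and Phlda2.

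**Figure D4:**
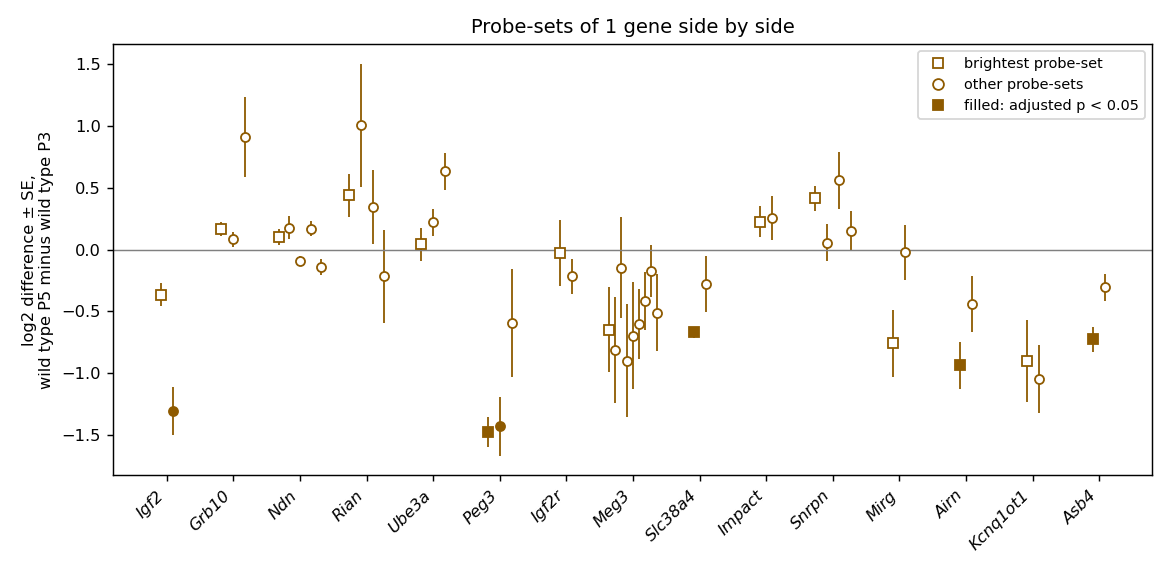
Log2 difference ± SE between wild type P5 and wild type P3 (vertical axis) for each probe-set with a mean log2 signal above 4, for the genes with more than 1 such probe-set. Squares are the probe-set that represents the gene, and filled symbols passed limma's test at an adjusted p under 0.05. Igf2 differs between its probe-sets (-0.36 and -1.30), and the Rian and Meg3 sets are wide.

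At the level of probe-sets, 13 of the 60 with a mean log2 signal above 4 fell between P5 and P3 (21.7%), against 10.4% of all probe-sets at that level, and 1 rose (1.67%), against 9.75%. Peg3 had 2 that fell and another, dimmer one that differed by -0.59 (adjusted p = 0.627). The 9 measurable Meg3 probe-sets all had negative differences, between -0.90 and -0.15, and none passed.

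Few of these genes differed with genotype at passage 3. In the null 2 of the 40 rose relative to wild type P3 (5%), against 1.51% of all genes, and none fell, against 1.07%. Among the 28 above 4 it was the same 2 (7.14%), against 2.61% of all genes at that level, and none fell, against 1.91%. The median difference was 0.06 over the 40 and 0.10 over the 28. These counts were not stable: 4 rose without null array 1, 1 rose without null array 2 or P3 array 1 or 3, 5 rose and 1 fell when only probe-sets above a log2 signal of 4 on at least 3 arrays were tested, and none rose with the signal-dependent prior. The null arrays of Igf2, Cdkn1c, Peg3, Asb4, Impact and Gnas all lay above the P3 arrays, and those of Peg12, Phlda2 and Mkrn3 all lay below. None of these genes passed on its brightest probe-set. The share of all genes separated in this way was not counted, so no direction is read from these genes. Blcap rose by 0.42 (SE 0.01, 1.34-fold, adjusted p = 2.35e-05), and Slc38a4 by 0.40 (SE 0.05, 1.32-fold, adjusted p = 0.0156).

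Both were higher on all 3 null arrays than on any P3 array, and Slc38a4 no longer passed without null array 2 or P3 arrays 1 or 3 (adjusted p = 0.0528 to 0.0688). Its second probe-set differed by 0.16 and did not pass. With the signal-dependent prior neither gene passed (adjusted p = 0.208 for Blcap and 0.250 for Slc38a4). Asb4 differed by 0.60 (SE 0.10, adjusted p = 0.0515) on its brighter probe-set, and rose by 0.77 (adjusted p = 0.0334) on its dimmer one. Peg12 differed by -0.41 (adjusted p = 0.0634), and Peg3 by 0.56 (adjusted p = 0.100), which passed at 0.70 without null array 1 (adjusted p = 0.0139).

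Several genes that fell with passage had means in the null near those of wild type at the same passage. The difference of the null from P3 was 0.04 for H19 (SE 0.05, 95% interval -0.09 to 0.16), -0.01 for Zdbf2 (-0.25 to 0.22), -0.05 for Mest (-0.38 to 0.29), -0.02 for Nnat (-0.90 to 0.86) and 0.21 for Tfpi2 (-0.41 to 0.84). That of Cdkn1c was larger, at 0.46 (0.07 to 0.85), with all null arrays above the P3 arrays, and did not pass (adjusted p = 0.365). The intervals of H19 and Zdbf2 are narrow, and those of Nnat and Tfpi2 leave room for a change of the size seen with passage in other genes. Dlk1 differed by -0.58 (SE 0.41, adjusted p = 0.768), with null array 3 lowest, and Igf2 by 0.21 (SE 0.10, adjusted p = 0.565).

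Set against wild type P5, the null differs in genotype and passage at the same time, and the 2 cannot be told apart. Of the 40 genes 13 rose in the null (32.5%; 8 genes without P5 array 1), against 6.08% of all genes, and none fell, against 5.33%. Of the 28 above 4, 12 rose (42.9%), against 10.8% of all genes at that level, and none fell, against 8.91%. Paternally expressed genes gave 7 of the 13 and maternally expressed genes 6. Cdkn1c rose by 2.74 (SE 0.16, 6.66-fold, adjusted p = 0.000628), Peg3 by 2.03 (SE 0.12, 4.09-fold, adjusted p = 0.000618), Tfpi2 by 2.01 (SE 0.26, adjusted p = 0.00750), Nnat by 1.98 (SE 0.36, adjusted p = 0.0265) and Zdbf2 by 1.54 (SE 0.10, adjusted p = 0.000747).

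Smaller increases over P5 were those of Asb4 (1.33, adjusted p = 0.00138), Phlda2 (1.08, adjusted p = 0.0294, of uncertain size near the floor), Slc38a4 (1.07, adjusted p = 0.000214), Airn (0.93, adjusted p = 0.0362), Mest (0.90, adjusted p = 0.0147), H19 (0.69, adjusted p = 0.00140), Igf2 (0.57, adjusted p = 0.0188) and Blcap (0.09, adjusted p = 0.00195). The call of Airn was lost without any 1 array other than P5 array 3 (adjusted p = 0.0620 to 0.122), that of Phlda2 without any null or P5 array or P3 array 1 (0.0655 to 0.104), and that of Nnat without any P5 array, null array 2 or P3 array 3 (0.0541 to 0.0993). Igf2 lost its call without any P5 array (adjusted p = 0.0518 to 0.0737) and Mest without P5 array 1 or 3 (0.0621 and 0.0508). The small difference of Blcap did not pass with the signal-dependent prior (adjusted p = 0.766), after median centring (0.0530) or when only probe-sets above a log2 signal of 4 were tested (0.233). Igf2r differed by 0.37 on its brighter probe-set and rose by 0.76 (adjusted p = 0.0252) on the dimmer. The dimmer Airn probe-set differed by 0.61 (adjusted p = 0.220) and did not pass. This comparison shares the null and P5 arrays with those above, so its differences are not independent of them.

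Some factors that maintain imprints also fell at P5. Of 15 such genes measured, 5 fell between P5 and P3 (33.3%, against 7.11% of all genes) and none rose (against 6.13%), with a median difference of -0.30, against 0 over all genes. Uhrf1, which brings DNMT1 to replicated DNA, averaged 10.62 ± 0.08 in the null, 10.08 ± 0.04 in P5 and 11.20 ± 0.05 in P3 (SD, n = 3 each), and P5 fell by 1.12 (adjusted p = 0.000237). Dnmt1 averaged 10.44 ± 0.11 in the null, 9.67 ± 0.06 in P5 and 10.64 ± 0.06 in P3, and P5 fell by 0.98 (adjusted p = 0.000818). Trim28 fell by 0.68 (adjusted p = 0.00331) and Smchd1, a chromatin protein of the inactive X and of imprinted clusters, by 0.35 (adjusted p = 0.0276). Between the null and P3, 1 of the 15 fell (against 1.07% of all genes), Uhrf1 by 0.58 (adjusted p = 0.00707), and between the null and P5, 3 rose (20%, against 6.08%). Zfp57, looked up for its motif above, averaged 2.69 in the null, 2.61 in P5 and 2.80 in P3, near the floor in all.

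Another 36 measured genes reported as imprinted in the mouse gave 5 that rose (13.9%, against 6.13% of all genes) and 3 that fell (8.33%, against 7.11%) between P5 and P3, with a median difference of 0.10, so the share that fell was near the background. Between the null and P3, 1 rose and 1 fell (2.78% each, against 1.51% and 1.07%). Between the null and P5, 4 rose (11.1%, against 6.08% of all genes) and 7 fell (19.4%, against 5.33%), whereas none of the 40 listed genes fell there. Cobl, an actin nucleator, averaged 2.98 ± 0.26 in the null, 5.80 ± 0.33 in P5 and 3.17 ± 0.13 in P3, and P5 rose by 2.63 (adjusted p = 0.00112). Cd81, a tetraspanin, rose by 0.60 (adjusted p = 0.00165). The 3 that fell were Ddc, aromatic amino acid decarboxylase, by 0.82 (adjusted p = 0.00452), Mcts2 by 0.52 (adjusted p = 0.0341) and Nap1l4, a nucleosome assembly protein, by 0.49 (adjusted p = 0.0110). In the null, Sfmbt2, a Polycomb family protein, rose by 0.78 (adjusted p = 0.0202) and Dcn, the matrix proteoglycan decorin, fell by 0.73 (adjusted p = 0.0317) relative to P3, and these last 2 were chosen after their values were seen. Whether the 2 lists differ was not tested.

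Markers of other cell types also differed between the groups, some up and some down at P5. Of all genes 1.51% rose between the null and P3, 6.13% rose and 7.11% fell between P5 and P3, and 6.08% rose and 5.33% fell between the null and P5, beside which the counts of these lists are to be read. The 8 skeletal muscle markers averaged 6.11 to 6.67 on the null, 3.34 to 3.44 on the P5 and 4.59 to 4.65 on the P3 arrays. Of these 6 rose between the null and P3, 3 fell between P5 and P3, and 6 rose between the null and P5, while Myod1 and Ckm were below 3 on all arrays. The 10 macrophage markers averaged 4.93 to 5.40 on the null, 4.09 to 4.21 on the P5 and 4.18 to 4.36 on the P3 arrays, with 1 of 10 rising between the null and P3, none passing between P5 and P3, 6 rising between the null and P5, and Ptprc and Adgre1 near the floor. The 4 cartilage markers averaged 5.81 to 6.28 on the null, 4.96 to 5.25 on the P5 and 5.78 to 6.06 on the P3 arrays, and 2 fell between P5 and P3. The 5 simple epithelium markers averaged 3.88 to 4.08 on the null, 3.17 to 3.27 on the P5 and 3.86 to 3.96 on the P3 arrays, where Krt18 fell between P5 and P3 and Cdh1 was at the floor. The 6 endothelial markers averaged 3.13 to 3.30 on the null, 2.77 to 2.95 on the P5 and 3.06 to 3.13 on the P3 arrays, with 4 of them below 3 on all arrays and 1 that rose between the null and P5.

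The mean of the 5 neural markers was higher on every P5 array than on the others, at 5.43 to 5.46 on the null, 5.80 to 6.01 on the P5 and 5.50 to 5.64 on the P3 arrays. Of the 5, 1 rose and 0 fell between P5 and P3: Map2, a microtubule protein of neurons, by 1.07 (adjusted p = 0.0454). Stmn2 differed by 0.86 (adjusted p = 0.0512) and Tubb3 by -0.51 (adjusted p = 0.239), neither of which passed, while Gfap was at the floor and Sox2 near it. Between the null and P5, 2 of the 5 fell (Map2 and Stmn2) and 1 rose (Tubb3, by 1.07, adjusted p = 0.0289). Of the 11 fibroblast markers 3 rose between P5 and P3, and 4 fell between the null and P5. The part of these cells in the lower imprinted gene signals at P5 was not tested, and in bulk RNA fewer cells of a type and less RNA per cell cannot be told apart.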

How the data were processed

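RNA of 9 cultures was hybridised to Affymetrix 3′ expression arrays. The paper describes the cultures of each group as independent, and does not state whether cultures of different groups shared an origin. The authors deposited log2 signals made with GCRMA, which corrects background from the probe sequence, normalizes arrays by quantiles and summarises probe-sets. Limma is named beside it in the submitters' processing notes, without versions. Low signals are pressed to the floor by this method, so decreases of dim genes are understated. Deposited values were used as they stand. Probe-sets were named by gene number through a RefSeq table of GRCm38.p6: 34958 had 1 symbol, 932 several and 9211 none used here. Probe-sets of several genes were used only for H19 (1, with Mir675) and Snrpn (6, with Snurf), and 1 of Airn with Igf2r was left out.

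With R 4.3.3 and limma 3.58.1, 3 group means were fitted to 9 arrays with lmFit and eBayes at defaults (prior 0.345 and residual 6 degrees of freedom) and tested as above; the code was tested on simulated data. The number of arrays limits precision, and an exact permutation test of 3 against 3 cannot go below 0.1. Full values were given for Igf2, H19, Cdkn1c, Dlk1 and members past the threshold. The members and gene lists were chosen with earlier results of these data known. Alternatives are given in the closing section.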

Additional observations from a re-analysis of the deposited data

How the results depend on the processing

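No called gene difference reversed under any alternative. Some differences that did not pass changed sign, such as that of Dlk1 between P5 and P3 (-0.30 to 0.16). Of 28 called gene differences, 11 passed under all alternatives (H19, Cdkn1c, Peg3, Zdbf2 and Slc38a4 between P5 and P3 and between the null and P5, and Asb4 between the null and P5), and 17 were lost under at least 1. Counts of imprinted genes had been 12 that fell and 1 that rose between P5 and P3, 2 that rose between the null and P3, and 13 that rose between the null and P5. Testing only probe-sets above a log2 signal of 4 on at least 3 arrays gave 5 that rose and 1 that fell between the null and P3, 4 that rose between P5 and P3, and 3 that fell between the null and P5. That fit had fewer probe-sets to adjust over and a prior estimated from them alone. Median centring gave 4, 1, 3 and 2 for these counts, and 2 rose between P5 and P3 under a second quantile normalization. A prior with trend and robust settings left 0 that rose in either passage 3 comparison (the null or P5 against P3). With that prior 9 fell between P5 and P3, and 9 rose between the null and P5. With 6 arrays alone, 2 rose and 11 fell between P5 and P3, and 10 rose and 1 fell between the null and P5. Averaging the probe-sets of each gene gave 1 that fell between the null and P3, 3 that rose between P5 and P3 and 1 that fell between the null and P5. Taking a moderated F p under 0.0001 and a log2 difference of 0.5, with cutoffs after the study and the F test chosen here, 6 fell and 0 rose between P5 and P3, 6 rose between the null and P5, and 2 rose between the null and P3 (Peg3 and Asb4, in place of Blcap and Slc38a4). The causes were not tested.

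Replicate numbers were not taken to pair the samples, since deviations of same-numbered arrays correlated between -0.491 and 0.395. Arrays of different numbers were not compared, and whether cultures of different groups shared an origin was not tested. With the replicate number as a block, 1 rose between the null and P3, 8 between the null and P5, and 8 fell between P5 and P3. Leaving out 1 array at a time gave 1 to 4 that rose and 0 that fell between the null and P3, 1 to 2 that rose and 10 to 14 that fell between P5 and P3, and 8 to 13 that rose and 0 to 1 that fell between the null and P5; 8 was reached without P5 array 1. Chosen after seeing the data, any probe-set of a gene gave 14 that fell between P5 and P3, and leaving out those of several genes gave 11. Signals below 3 leave 8 genes unmeasurable, and Igf2 and H19 lie near the top of the scale.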

Other observations

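Igf2os, an RNA antisense to Igf2 that is not on the list, was chosen after its values were seen. It had log2 signals of 7.84, 7.08 and 7.14 in the Tgif1 null, 4.25, 5.14 and 4.90 in wild type P5, and 6.92, 6.64 and 6.64 in wild type P3 cultures. P5 fell by 1.97 (SE 0.29, 3.91-fold, limma adjusted p = 0.0113) relative to P3, and relative to P5 the null was higher by 2.59 (SE 0.29, adjusted p = 0.00486), while the null differed from P3 by 0.62 (adjusted p = 0.600).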
